A study of Homo sapiens with 6 samples.

Results

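The compartments of 10 genes of insulin-like growth factor (IGF) signalling were followed in T47D cells over estradiol treatment and in tamoxifen resistance. The genes were the ligands IGF1 and IGF2, the receptors IGF1R and INSR, the adaptors IRS1 and IRS2, and the binding proteins IGFBP2, IGFBP3, IGFBP4 and IGFBP5. They are 10 of 19710 protein-coding genes with a scored bin, and were chosen by name, with IRS1 included because its surroundings were known to move from compartment A to compartment B in the resistant cells. For each gene the 100 Kb bins that its body overlaps and 10 bins on either side were taken, giving 198 distinct bins of the 27898 that had a score in all 6 libraries.

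IGF1 and IGF2 bind the receptor tyrosine kinase IGF1R, and IGF2 also binds INSR, the insulin receptor. The activated receptors phosphorylate the docking proteins IRS1 and IRS2, which pass the signal to the phosphoinositide kinase and MAP kinase pathways, while the IGFBP proteins hold the ligands and set how much of them reaches the receptors. In estrogen receptor-positive breast cancer cells the pathway is known for its crosstalk with the estrogen receptor, and IRS1, IGF1R and IGFBP4 are known as estrogen-responsive genes. Compartment A holds active, gene-rich chromatin and compartment B inactive chromatin, but a compartment is a property of a region and is not a measure of the expression of a gene in it.

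The T47D line was established from a breast cancer that expresses the estrogen receptor. Its parental cells were starved of hormone for 72 h and collected without E2 (T0) or after 1, 4, 16 and 24 h in 100 nM E2 (T1, T4, T16 and T24). Tamoxifen-resistant T47D cells (TamR) are described as untreated in the sample labels, and the methods of the study state that TamR cells were grown in charcoal-stripped serum with 100 nM tamoxifen, so that resistance, the drug and the medium cannot be told apart. Tethered chromatin conformation capture (TCC), a form of Hi-C with ligation on beads, was used to measure contacts between regions of the genome, and for every bin of 100 Kb (hg19) the authors deposited 1 score, taken from the first eigenvector of the contacts between chromosomes. A positive score was read as A and a negative score as B, and scores are given multiplied by 1000. Each condition had 1 library, so that differences between conditions could not be checked in replicates and were not tested, and whether cultures were pooled is not stated for T47D. The squared scores of a library sum to 0.998 to 0.999, so the size of a score depends on all bins of that library. The files hold no contact counts, and the depth behind a score is unknown. All 8 luminal genes looked up (ESR1, GATA3, FOXA1, KRT8, KRT18, KRT19, CDH1 and EPCAM) were in A in T0 (77.4% of all protein-coding genes). Of these, 6 were in A in all 6 libraries (71.6% of all genes). This is near the share over all genes, so the counts do not check the cell type. The other 2 went from A in T0 to B in TamR (4.45% of all genes). ESR1, the estrogen receptor gene, had a score of 2.89 in T0 and -0.510 in TamR, and GATA3 of 2.20 and -0.757.

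The adaptors carried the widest change, and the sequence directly before their starts is shown with that of IGF1, the 1 gene of the 10 that lay in B throughout. Each line gives the 250 bases before the start of the gene in the orientation of the gene, from RefSeq (GRCh38.p14), which held 9 of the 10 genes. Each was searched only on its own chromosome and strand of GRCh37 and matched exactly once. The places were chr2:227664537-227664786 for IRS1, chr13:110438931-110439180 for IRS2 and chr12:102875526-102875775 for IGF1, all on the minus strand. Capitals mark GC boxes, GGGCGG or CCGCCC, which 42.3% of 27305 such stretches held.
IRS1 promoter: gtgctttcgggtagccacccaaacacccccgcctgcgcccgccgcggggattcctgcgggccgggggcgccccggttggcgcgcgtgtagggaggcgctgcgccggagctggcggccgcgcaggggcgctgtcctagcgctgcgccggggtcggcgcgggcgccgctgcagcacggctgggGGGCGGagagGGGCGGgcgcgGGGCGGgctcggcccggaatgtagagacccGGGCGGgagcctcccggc
IRS2 promoter: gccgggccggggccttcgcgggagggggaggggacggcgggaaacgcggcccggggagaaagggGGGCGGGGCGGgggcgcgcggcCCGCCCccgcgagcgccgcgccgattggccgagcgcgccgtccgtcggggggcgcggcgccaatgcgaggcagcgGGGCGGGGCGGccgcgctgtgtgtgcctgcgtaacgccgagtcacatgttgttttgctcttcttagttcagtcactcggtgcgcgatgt
IGF1 promoter: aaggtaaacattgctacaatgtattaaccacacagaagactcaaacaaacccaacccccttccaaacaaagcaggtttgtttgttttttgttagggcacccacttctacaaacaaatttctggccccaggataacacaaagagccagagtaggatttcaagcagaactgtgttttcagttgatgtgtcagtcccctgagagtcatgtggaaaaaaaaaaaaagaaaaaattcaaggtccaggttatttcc
The stretch of IRS1 was 80.8% G and C with 39 CpG dinucleotides and 4 GC boxes, and that of IRS2 was 76.4% with 42 CpG and 5 GC boxes. That of IGF1 was 39.6% with 0 CpG and 0 GC boxes. Over all such stretches the median was 58% with 11 CpG, so both adaptors have promoters of the CpG-rich kind and IGF1 has not. INSR, whose start bin was in A in all 6 libraries, had 78.4% G and C in the same stretch, and IGF1R, whose start bin was in B in all 6, had 81.2%, so genes that did not move shared this richness.

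The palindromic estrogen response element (GGTCA and TGACC with 3 bases of any kind, NNN, between them), to which the estrogen receptor binds, was searched in the GRCh37 sequence. It reads the same on both strands and was found in 2001 of 27898 scored bins (7.17%) and in 25 of the 198 bins of the windows (12.6%). Of the window bins 154 were in A in T0, against 46.2% of all scored bins, and the part of this in the difference was not tested. No bin of the IRS1 or IRS2 body held an element, which says only that these letters are not there. The windows of IRS1 and IRS2 held 3 and 2 elements in all, and those not shown lie in bins in B in T0. The bins around these genes that were in A at T0 and in B in TamR held 3, shown here with 25 bases on either side, from the plus strand, with the outer bases of the motif in capitals.
IRS1 window, chr2:226826499-226826511: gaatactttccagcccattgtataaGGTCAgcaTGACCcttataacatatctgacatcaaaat
IRS1 window, chr2:227046548-227046560: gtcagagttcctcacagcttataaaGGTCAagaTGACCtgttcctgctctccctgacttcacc
IRS2 window, chr13:110522709-110522721: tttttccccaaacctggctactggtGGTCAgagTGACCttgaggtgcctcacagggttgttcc
The first element lies in no annotated gene, and the second lies in ENSG00000235070, a long noncoding RNA gene. They are 838 and 618 Kb from the IRS1 start, on the side of the 3′ end of the gene. The third lies in no annotated gene, 83.8 Kb before the IRS2 start. The bins of the first 2 elements had the scores 1.39 and 2.84 in T0 and -8.28 and -7.29 in TamR, and the bin of the third had 1.43 in T0 and -2.51 in TamR.

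Of the 10 genes, 9 were in A in T0 (77.4% of all protein-coding genes were) and 6 were in A in all 6 libraries, namely IGF1R, INSR, IGF2, IGFBP2, IGFBP4 and IGFBP5 (71.6% of all genes). IGF1 was in B in all 6 (16.6%). IRS1 and IRS2 were in A in T0 and in B in TamR (2 of 10, with 4.45% of all genes), and both were in A in every parental library (2.74% of all genes), while no gene of the 10 went from B to A (5.15%). Since IRS1 was chosen for its move, nothing is read from the count. IGFBP3 was the 1 gene whose compartment differed from T0 at an E2 time point (5.31% of all genes), at T24 (4.13%). A gene had, as its score, the mean over the bins of its body.

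**Figure D1:**
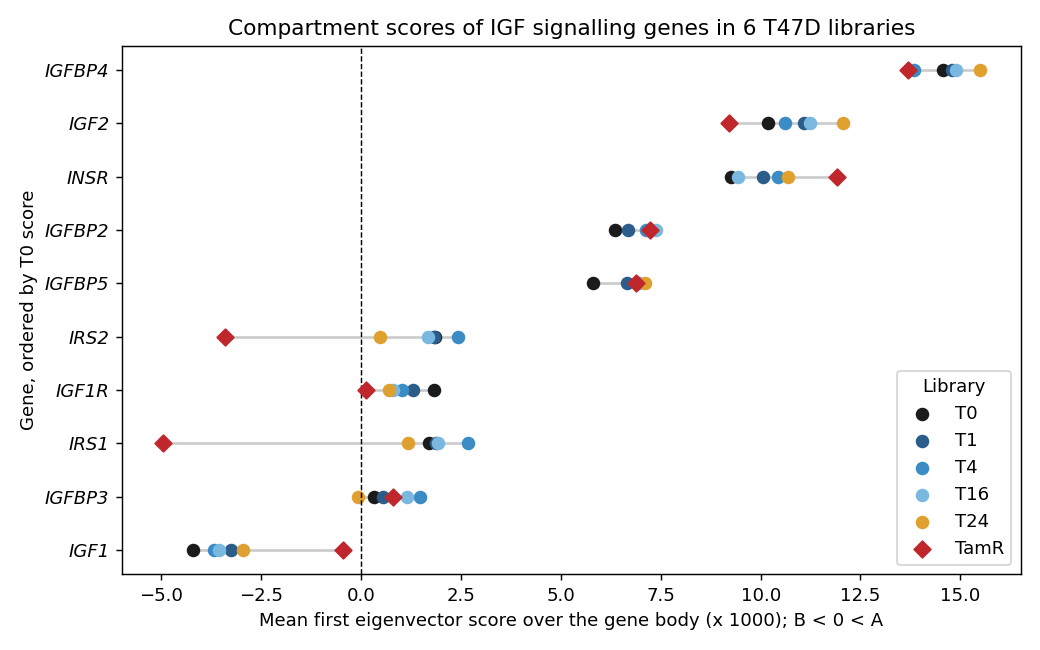
Mean first eigenvector score over the gene body (multiplied by 1000, horizontal axis) of the 10 genes (vertical axis, ordered by their T0 score), with 1 point for each of the 6 libraries, a diamond for TamR and a grey line from the lowest to the highest library. The dashed line at 0 is the border between B and A. The TamR points of IRS1 (-4.96) and IRS2 (-3.40) lie far left of the 5 parental points, and that of IGF1 (-0.447) lies right of them, still in B.

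IRS1, the adaptor that couples both receptors to the phosphoinositide kinase pathway, lies on the minus strand of chromosome 2 at 227596028 to 227664536 (hg19, ENSG00000169047.6_8) and overlaps 2 bins. Its score was 1.70 in T0, 1.87 in T1, 2.66 in T4, 1.93 in T16, 1.18 in T24 and -4.96 in TamR. The 5 parental scores were all low positive values within A, with T4 the highest and T24 the lowest, and TamR was below all of them. The difference of TamR from T0 was -6.66, and the SD over the 5 parental libraries, which are time points and not replicates, was 0.532. Of 19710 genes, 50 had a more negative difference. Leaving out each parental library in turn, the difference between TamR and the mean of the others ranged from -7.00 to -6.63. This range follows from the scores above, for which IRS1 was chosen, and is no check on them.

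IRS2, the second adaptor of the family, lies on the minus strand of chromosome 13 at 110405042 to 110438930 (ENSG00000185950.9_8), within 1 bin. Its score was 1.85 in T0, 1.81 in T1, 2.43 in T4, 1.68 in T16, 0.466 in T24 and -3.40 in TamR. The extremes were those of IRS1: T4 was again the highest, T24 the lowest parental library and TamR below all. The parental libraries between them, T0, T1 and T16, lay in the reverse order. The difference of TamR from T0 was -5.25, and 161 genes had a more negative one. Leaving out each parental library in turn, TamR was between 4.85 and 5.35 below the mean of the others, which again follows from the scores. IRS2 was not named in the reason for choosing IRS1, but it was listed with the same scores known, so its move is a description too.

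Both adaptors started from scores near the border, as many genes that moved did. In the band of T0 scores between 1 and 3, which was set after the scores of IRS1 and IRS2 were seen, 392 of 2010 genes (19.5%) were in B in TamR. IGF1R, the third gene of the 10 in this band, stayed in A. The median difference between TamR and T0 was -0.383 over all genes and -0.202 over the 10 genes, and the median absolute difference was 1.31 over all genes and 1.40 over the 10.

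Nearly all of the IRS1 window was lower in TamR. Of its 22 bins, 19 were in A in T0 and 0 in TamR, and 15 of them were in A in all 5 parental libraries and in B in TamR (3.94% of all scored bins). The difference of TamR from T0 ran from -10.4 to 0.0232 over the bins with a median of -6.27, and TamR was below the parental range in 20 of the 22 (43.6% of all scored bins). The largest falls were not at IRS1 but on the side of NYAP2, where the bin from 226600001 had scores of 1.54 to 2.60 in the parental libraries and -8.55 in TamR. Past the IRS1 start the parental scores ran down to the border, and the bin from 228600001 differed little, with -3.01 in T0 and -2.98 in TamR.

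IRS1 lies close to the right end of a long A stretch in the parental cells. In T0 this stretch ran from 215500001 to 228400000 (129 bins), with 7 bins between the IRS1 start bin and its end, and the right end lay at 228300000 in T1 and T4, 228200000 in T16 and 228000000 in T24. IGFBP2 and IGFBP5, at 217497551 to 217529159 and 217536828 to 217560272, lie near the left end of the same stretch, at -10.2 and -10.1 Mb from the IRS1 start bin. The binding proteins and the adaptor thus shared 1 A stretch in each of the 5 parental libraries and were in separate compartments in TamR. The stretch was then broken at 224000000, and IRS1 lay in a B run from 224800001 to 230800000 (60 bins with a mean score of -5.09). IGFBP2 and IGFBP5 lay in an A run from 215600001 to 224000000 (84 bins with a mean score of 5.85).

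**Figure D2:**
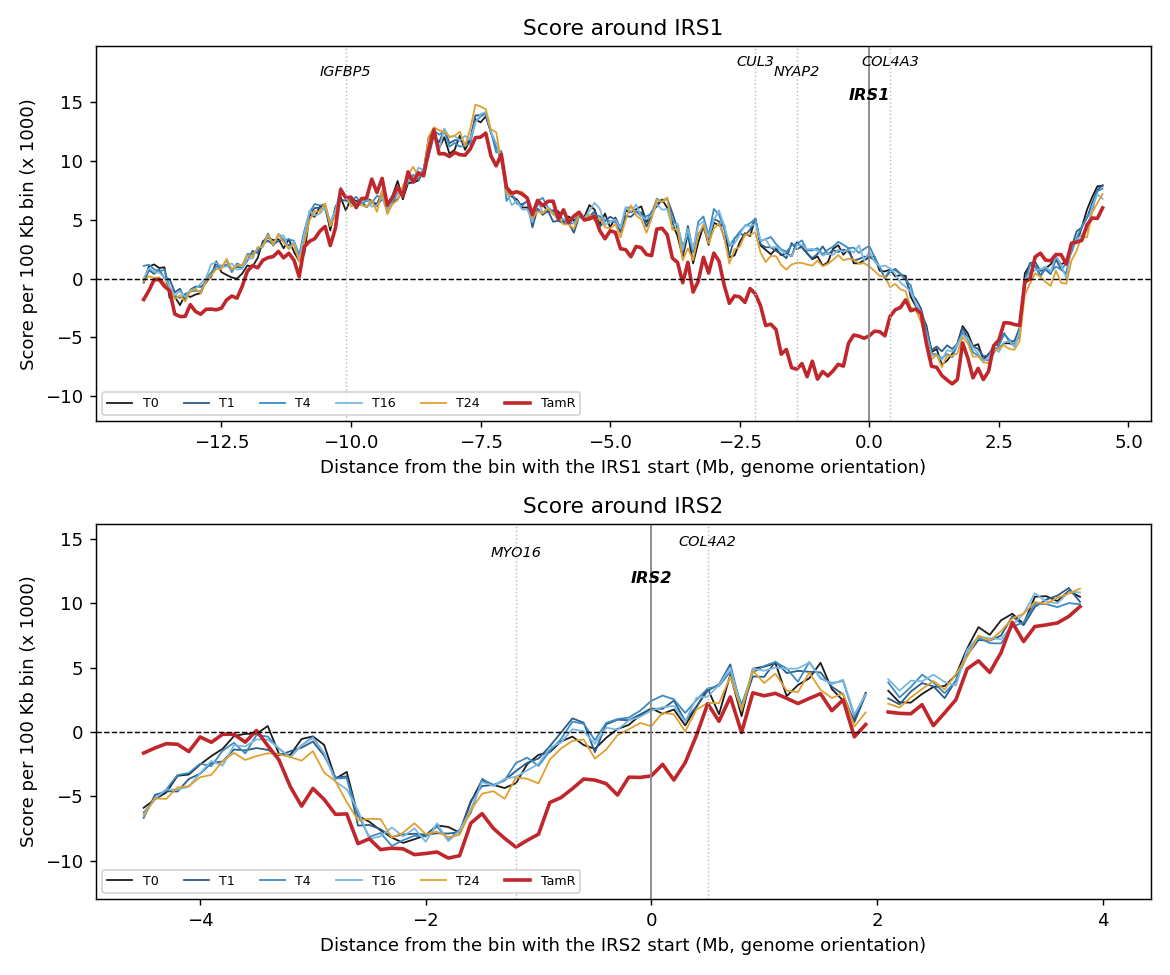
Score of each 100 Kb bin (multiplied by 1000, vertical axis) against the distance in Mb from the bin with the gene start, in genome orientation (horizontal axis), around IRS1 (upper panel) and IRS2 (lower panel), with 1 line per library and TamR in thick red. The dashed line is the border at 0, and vertical lines mark gene starts. The lines of the lower panel break at bins without a score, at 2 and 3.9 Mb. Around IRS1 the TamR line stays below 0 from 28 bins to the left of the gene to the B region on the right that the parental lines share, and around IRS2 it is below them in all 21 bins of the window, while at the far left of the panel it is above them.

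The 125 bins of chromosome 2 that were in A in all 5 parental libraries from 215500001 to 228000000 were split at the ends of the TamR runs. Their TamR scores therefore differ between the parts by construction, and no gradient is read from them. The 85 bins up to 224000000, which hold IGFBP2 and IGFBP5, had a mean score of 6.53 in T0 and 5.78 in TamR. The 8 bins that follow had 3.35 and 0.708. In the last 32 bins the mean was 2.44 in T1, 2.87 in T4, 2.66 in T16 and 1.70 in T24, and every bin was in B in TamR. The scores of the shared stretch were thus already lower in the part with IRS1 than in the part with IGFBP2 and IGFBP5 in each parental library.

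The run of bins with the IRS1 pattern, A in all 5 parental libraries and B in TamR (3.94% of all scored bins), was the longest of 375 such runs, whose median length was 2 bins. IRS1 was chosen for lying in a block with this move, so the length of the run and the falls in it are descriptions. The run holds the starts of 11 protein-coding genes, with 28 bins to the left and 3 to the right of the IRS1 start bin. The genes closest to IRS1 are RHBDD1, a rhomboid protease gene, and NYAP2, whose product binds phosphoinositide kinase in neurons. The start bin of RHBDD1 had 1.88 in T0 and -4.47 in TamR. NYAP2 had the largest fall of the run, from 3.09 in T0 to -7.71 in TamR, and 13 of 27898 bins had a more negative difference. The start bin of DOCK10, a guanine nucleotide exchange factor gene, had 1.99 and -6.43, and that of CUL3, the scaffold of a ubiquitin ligase, had 5.15 and -1.30. WDFY1 and ENSG00000286239 start in the first bin of the run with MRPL44 and had 4.56 and -0.555. SERPINE2, FAM124B and CCDC195 had TamR scores of -2.10, -2.02 and -2.29. The first gene to the left, AP1S3, stayed in A with 4.55 in T0 and 1.49 in TamR. The first to the right, COL4A4, was already in B at T24, with -0.742, and had -3.21 in TamR.

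The change around IRS2 was narrower. Of the 21 bins of its window, 14 were in A in T0 and 5 in TamR. From A to B went 9 (6.27% of all scored bins), and 8 of these had been in A in all 5 parental libraries (3.94%). TamR was below the parental range in all 21 bins (43.6% of all scored bins), also in those that stayed in A or in B. The differences from T0 ran from -6.17 to -0.551. Neighbouring bins are not independent, so these counts are descriptions. In the parental cells IRS2 lay in an A stretch from 110100001 to 112400000 in T0, of 23 bins. It began at 110000001 in T1, T4 and T16 and at 110200001 in T24. Its right end is a bin without a score, which ends a run, and not a border. The bin after that one was still in A, with 3.22 in T0 and 1.56 in TamR. In TamR the gene lay in a B run from 107000001 to 110900000 (39 bins with a mean score of -5.96), so that the left border of the A stretch had passed the gene. The run with the IRS2 pattern had 7 bins, from 110200001 to 110900000, and 35 of the 375 runs were at least as long. IRS2 is the 1 protein-coding gene that starts in it. The next on the left, MYO16, was in B in T0 with -3.97 and had -8.94 in TamR, and the next on the right, COL4A2, stayed in A with 3.38 and 2.21.

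Among the genes outside the IRS1 run whose start bins were most like that of IRS1 over the 6 libraries, by Euclidean distance, were MAST4 (1.19), GRIP1 (1.32), TCIM (1.66) and FAM83B (1.71). These lie on chromosomes 5, 12, 8 and 6. IRS2 followed at rank 6 of 10573 start bins with 1.72, and the median distance over 19652 genes was 16.0. The start bin of GRIP1, a scaffold protein gene, had scores from 1.40 in T24 to 2.62 in T1 over the parental libraries and -4.61 in TamR. The likeness is a description over 6 libraries.

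IGF1R, the receptor of both ligands, spans 5 bins on the plus strand of chromosome 15 at 99191768 to 99507759 (ENSG00000140443.15_14). Its mean score was 1.83 in T0, 1.29 in T1, 1.02 in T4, 0.806 in T16, 0.695 in T24 and 0.127 in TamR. The score was lower at each later E2 time point than at the one before and lowest in TamR, which was 0.568 below the lowest parental library. The gene straddles a border: its start bin was in B in every library, with -0.724 in T0 and -0.435 in TamR, and was the last bin of a B run of 56 bins in T0. The other 4 bins had 1.67 to 3.31 in T0 and -0.273 to 0.934 in TamR, and 2 of them went from A to B. In TamR the B run reached 1 bin further into the gene, to 99300000.

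INSR, the insulin receptor gene, lies deep in A on chromosome 19 at 7112266 to 7294425 (minus strand, ENSG00000171105.14_12). Its score was 9.26 in T0, 10.1 in T1, 10.4 in T4, 9.43 in T16, 10.7 in T24 and 11.9 in TamR, the highest. The difference of TamR from T0 was 2.66, and 2188 of 19710 genes had a higher one. All 22 bins of its window were in A in T0 and in TamR, and TamR was above the parental range in 17 of them (35% of all scored bins). The receptors thus lay in different surroundings, IGF1R at a border with a lower score in TamR and INSR in the interior of A with a higher one.

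IGF1, the ligand that in breast is made mainly by stromal cells, lies on chromosome 12 at 102789652 to 102875522 (minus strand, ENSG00000017427.17_12). Its score was -4.21 in T0, -3.27 in T1, -3.67 in T4, -3.57 in T16, -2.96 in T24 and -0.447 in TamR. All 6 scores were in B, and that of TamR was 2.51 above the highest parental score, close to the border. The difference of TamR from T0 was 3.77, and 1379 genes had a higher one. The B run around IGF1 ran from 102500001 to 104000000 in all 5 parental libraries and was 1 bin longer in TamR. Inside the run some bins had higher and others lower scores in TamR. The 5 bins from 102600001 to 103100000 had -4.23 to -2.46 in T0 and -0.906 to -0.0277 in TamR, while the bin from 103400001, to the right of the gene, had -3.57 in T0 and -5.86 in TamR.

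IGF2, the ligand of both receptors, lies within 1 bin of chromosome 11 at 2150342 to 2179621 (minus strand, ENSG00000167244.22_18), a bin that it shares with INS. Its score was 10.2 in T0, 11.1 in T1, 10.6 in T4, 11.2 in T16, 12.1 in T24 and 9.20 in TamR. TamR was the lowest and T24 the highest library, all well inside A. The 21 bins of its window were in A in T0 and in TamR, and 15 of them had a TamR score below the parental range (43.6% of all scored bins). The gene lies 2.15 Mb from the end of the chromosome, in an A run of 40 bins in the parental libraries and 41 in TamR.

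**Figure D3:**
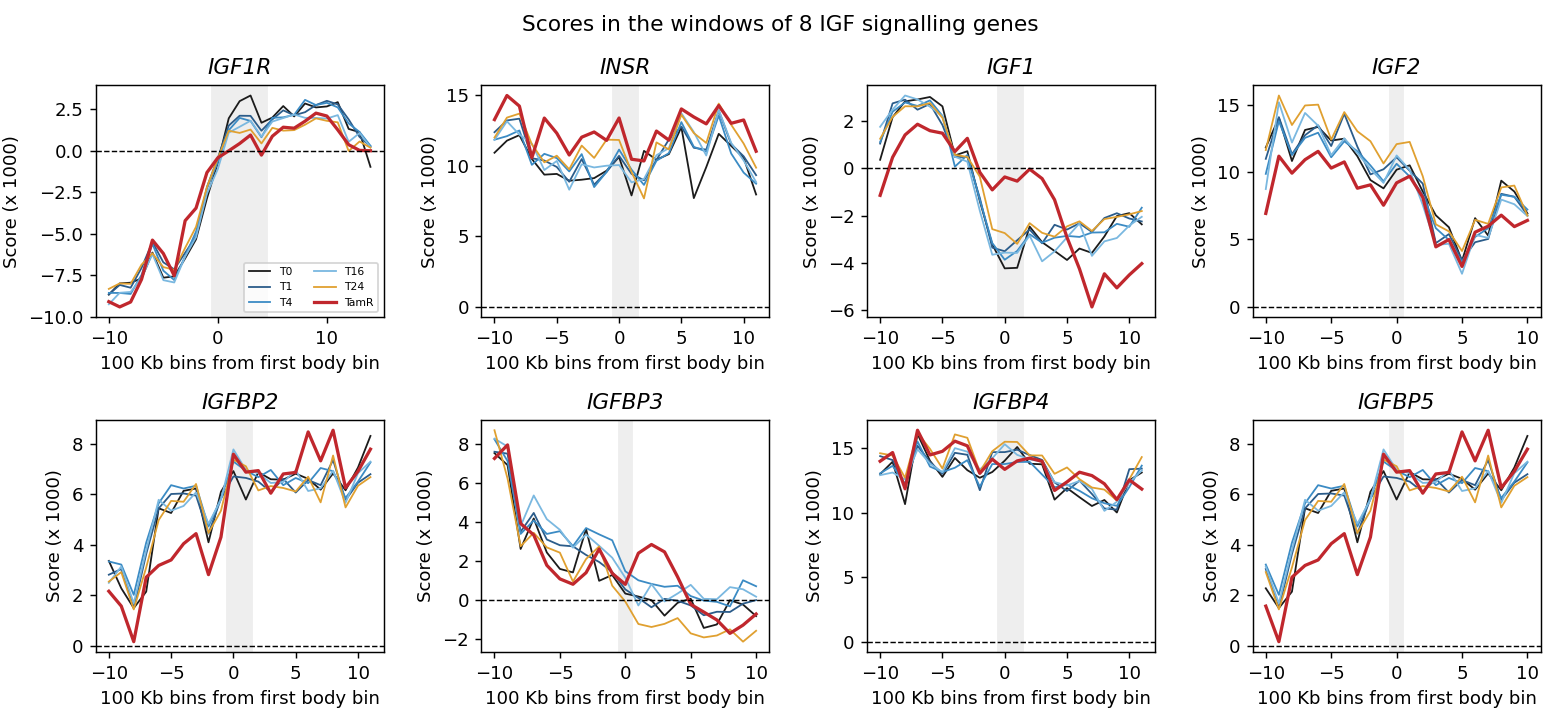
Score of each bin (multiplied by 1000, vertical axes, which differ between panels) in the windows of the other 8 genes against the number of 100 Kb bins from the first bin of the body in genome orientation (horizontal axes), with 1 line per library, TamR in thick red, the body bins in grey and the border at 0 dashed. IGF1R lies where the lines cross 0, IGF1 where TamR rises above the parental lines within B, and IGFBP3 where TamR is above the other lines in the first 4 bins to the right of the gene and T24 is below them there. IGFBP2 and IGFBP5 are neighbours and share most bins.

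Among the binding proteins, IGFBP3, the main carrier of IGF in serum, was the one close to a border. It lies on chromosome 7 at 45951844 to 45961473 (minus strand, ENSG00000146674.16_17), in a bin shared with IGFBP1. Its score was 0.325 in T0, 0.538 in T1, 1.47 in T4, 1.14 in T16, -0.0860 in T24 and 0.797 in TamR. T24 was the 1 library in B, by a small margin that was lost with the border at the library median, and TamR lay inside the parental range. Of the 21 bins of the window, 11 differed in compartment from T0 at some E2 time point, namely 2 at T1 (3.16% of all scored bins), 5 at T4 (3.05%), 8 at T16 (3.8%) and 3 at T24 (5.17%). Over the windows of all 10 genes, 21 of 198 bins did so (7.11% of all scored bins). At T24 the gene lay in a B run from 45900001 to 47300000 with a mean score of -1.34, and in T4 the A run reached 46500000. In TamR the 4 bins from 46000001 to 46400000 had 1.18 to 2.84, each above the parental range, and 3 of them went from B in T0 to A.

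The remaining binding proteins stayed in A in all libraries. IGFBP4, which binds IGF and holds it off the receptors and is cleaved by PAPPA, had the highest scores of the 10 genes. It lies on chromosome 17 at 38599702 to 38613977 (plus strand, ENSG00000141753.7_6), and its score was 14.6 in T0, 14.8 in T1, 13.8 in T4, 14.9 in T16, 15.5 in T24 and 13.7 in TamR. TamR was lower than the lowest parental library, T4, by 0.164. IGFBP2 (plus strand, ENSG00000115457.10_10) had 6.36 in T0, 6.68 in T1, 7.12 in T4, 7.37 in T16, 7.24 in T24 and 7.23 in TamR. IGFBP5 (minus strand, ENSG00000115461.5_11), which shares its bin with the end of IGFBP2, had 5.79 in T0, 6.65 in T1, 6.94 in T4, 6.96 in T16, 7.11 in T24 and 6.88 in TamR. For both, T0 was the lowest library and TamR lay inside the parental range, although IRS1 on the same A stretch fell.

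Over the E2 course T24 was often the lowest or the highest library among all genes, so nothing is read from how many of the 10 were so. T24 was the lowest parental library for IRS1, IRS2, IGF1R and IGFBP3 (4 of 10, with 28.8% of all genes) and the highest for INSR, IGF1, IGF2, IGFBP4 and IGFBP5 (5 of 10, with 35.2% of all genes). IGFBP2 was in neither group, with T0 as its lowest and T16 as its highest parental library. The 4 genes lowest at T24 had the 4 T0 scores nearest to the border from the side of A. For 3 of them, IRS1, IRS2 and IGFBP3, T4 was also the highest (7.06% of all genes). IRS1 and IRS2 stayed in A at T24. In TamR 5 genes were below all parental libraries, namely IRS1, IRS2, IGF1R, IGF2 and IGFBP4 (46.7% of all genes), INSR and IGF1 were above (30.4%), and 3 were inside (22.9%), which is not far from the shares over all genes.

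Of the 198 bins of the windows, 154 were in A in T0 (46.2% of all scored bins) and 125 in TamR. Those that went from A to B were 32 (6.27% of all scored bins), of which 19 were in the IRS1 window and 9 in the IRS2 window, and 3 went from B to A (7.67%), all in the IGFBP3 window. Together 17.7% of the bins differed between T0 and TamR, and 13.9% of all scored bins. Every bin of the windows of INSR, IGF2, IGFBP2, IGFBP4 and IGFBP5 was in A in both libraries.

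The genes differed in base composition, which was not used to choose them. The body bins of IRS1 had 40.7% G and C and those of IGF1 39.6%, near the median of scored bins (39.8%), while that of IRS2 had 43.8% and that of IGF2 58.3%. The enzyme of the assay, HindIII, cuts at AAGCTT, and IRS1 had 27.5 and IRS2 28 such sites per body bin, near the median of 29. INSR had 16.5 and IGF2 20, while IGF1 had 37, IGF1R 36.4 and IGFBP3 36. IRS1 lies 15.5 Mb and IRS2 4.73 Mb from the end of its chromosome. The part of base composition or of cutting sites in a score was not tested.

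The other genes of the pathway were read from a list of 30, of which 19 (63.3%) were in A in all 6 libraries, against 71.6% of all genes, and 7 (23.3%) in B in all 6, against 16.6%. None went from A to B (4.45% of all genes), and 2 went from B to A (5.15%). IGFBP7, a distant relative of the binding proteins, had -0.163 in T0, -1.15 in T1, -0.903 in T4, -0.986 in T16, -0.899 in T24 and 1.16 in TamR. IGF2BP3, which binds the IGF2 mRNA, had -0.896 in T0, -0.247 in T1, -0.447 in T4, -0.729 in T16, -1.12 in T24 and 3.92 in TamR. Both were in B in every parental library and crossed to A in TamR (3.82% of all genes). IGFBP7 did not cross with the score of its start bin, the border at the library median, weak bins left out or bins of 500 Kb. SOS1 and PTPN1 stayed in A by their body means, SOS1 not by its start bin, but had lower scores in TamR: SOS1, the exchange factor that links the receptors to Ras, had 3.43 in T0 and 0.387 in TamR, and PTPN1, a phosphatase of the insulin receptor, had 9.64 and 6.63.

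**Figure D4:**
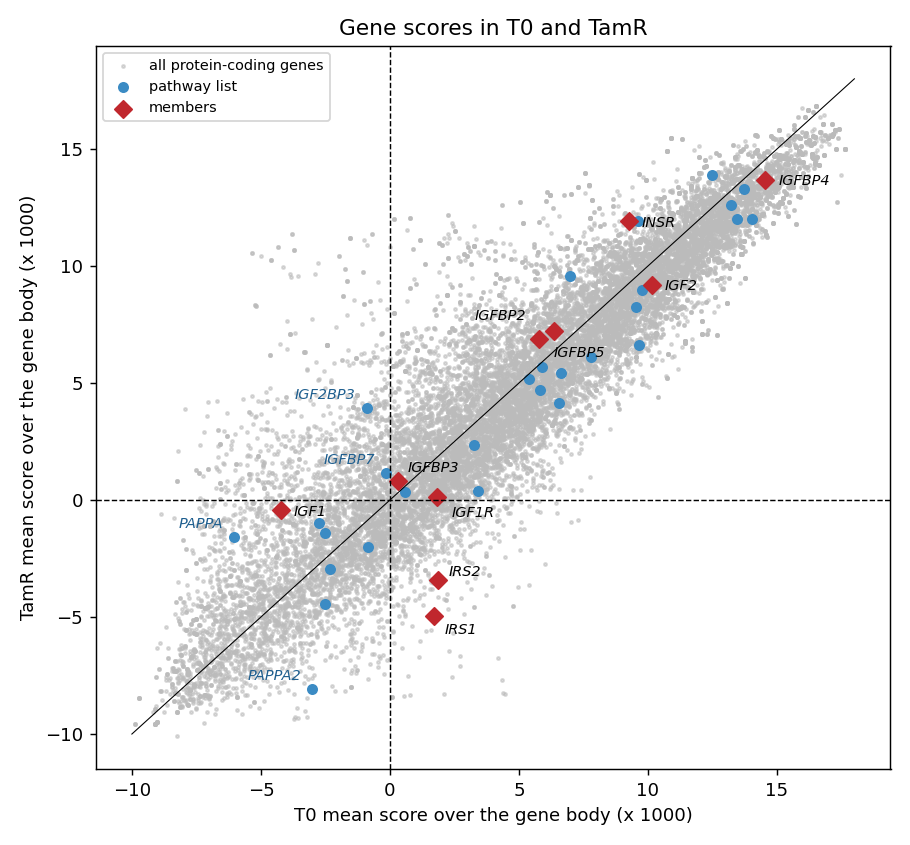
Mean body score in TamR (vertical axis) against that in T0 (horizontal axis), both multiplied by 1000, for all protein-coding genes (grey), the 30 genes of the pathway list (blue) and the 10 IGF signalling genes (red diamonds). The diagonal marks equal scores and the dashed lines the borders. IRS1 and IRS2 are the 2 diamonds in the lower right field, and IGFBP7 and IGF2BP3 the blue points in the upper left field.

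The proteases that cut the binding proteins lay in B and went apart within it. PAPPA, which cleaves IGFBP4, had -6.04 in T0 and -1.56 in TamR, with parental scores from -6.51 to -6.04. PAPPA2, which cleaves IGFBP5 and IGFBP3, had -3.01 in T0 and -8.06 in TamR, with parental scores from -3.01 to -1.09. Their inhibitors STC1 and STC2 had -2.52 and 7.80 in T0 and -4.43 and 6.13 in TamR. IGF2R, which takes IGF2 up for degradation, was in B throughout with -2.31 in T0 and -2.94 in TamR, and so were GRB10 and GRB14, adaptors that restrain the insulin receptor, with -2.74 and -2.51 in T0. IRS4, the X-linked member of the adaptor family, did not follow IRS1 and IRS2: its score was 0.595 in T0, -0.632 in T1, 0.00808 in T4, -0.909 in T16, -1.74 in T24 and 0.343 in TamR, so it changed compartment over E2 and was in A in T0 and in TamR. Of the 30 genes, TamR was below the parental range for 15, above it for 8 and inside it for 7, against 46.7%, 30.4% and 22.9% of all genes, and the median difference from T0 was -0.725.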

How the data were processed

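The authors deposited, for each of the 6 libraries, a BED file with a score for each bin of 100 Kb (hg19), which is the first eigenvector that HiCLib gave for the corrected contact matrix between chromosomes. According to the methods of the study, reads were aligned iteratively with bowtie2. A score of 0 marks a bin without a value, and the 27898 of 30376 bins on 23 chromosomes with a score in all 6 libraries were used. A bin without a value also ends a run. Scores were multiplied by 1000 and read with the deposited sign, A above 0 and B below 0. Genes were placed with GENCODE release 44 on GRCh37, in which the chromosomes are as long as in the files. For 8 repeated symbols the longest gene was kept. The score of a gene was the mean over the bins of its body. Each condition has 1 library, so that no test was made. Contact counts and depth are unknown, and no interval for a score can be given. The 10 genes, the list of 30 pathway genes and the 8 luminal marker genes were chosen with earlier results of these data known.

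The genes named were the 10 genes, the pathway genes whose sign differed between T0 and TamR, the protein-coding genes that start in the run with the IRS1 pattern with the first gene on either side, and the 5 genes outside it nearest to IRS1 by Euclidean distance over 6 start-bin scores, at most 1 per bin, of which 1 is not reported here. The other pathway genes with values, and the neighbours of IRS2, were picked after their scores were seen. The alternatives were the score of the start bin or of 5 bins around it, the border at the library median, quantile normalization to T0, a parental reference, bins without a score kept, weak bins (absolute score below the 10th percentile) left out, bins of 500 Kb and each E2 time point left out. The calling of sign changes from gene means was tested on simulated data, and the counting of runs was not. The simulation used only genes away from the border and noise smaller than the parental spread. It therefore checks the code and says nothing of calls near the border. Motifs were counted in the GRCh37 sequence. Python 3.11.15, numpy 2.4.6, pandas 2.3.3, scipy 1.17.1 and matplotlib 3.10.9 were used.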

Additional observations from a re-analysis of the deposited data

How the results depend on the processing

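Each of 7 results was computed again under the alternatives that apply to it, 58 values in all, of which 45 stayed close (a count within 1.5 times, IRS1 within 1 SD of the parental libraries, the share of bins within its 95% Wilson interval), 13 moved further and 0 reversed. Some of the 45 could not have moved, so their number does not measure robustness. All bins of the windows and gene bodies had a score, so keeping bins without a score changed nothing. The E2 count rested on T24 alone, so leaving out T1, T4 or T16 could not change it. IRS1 and IRS2 went from A to B under every alternative run, and quantile normalization added IGF1R, for 3 genes. The TamR minus T0 difference of IRS1 was -6.07 with bins of 500 Kb. The count of genes changed at an E2 time point was 0 in place of 1 with the mean of 5 bins around the start, with the border at the library median, with quantile normalization, with bins under the 10th percentile left out, where IGFBP3 and IGF1 have no value, and without T24. With bins of 500 Kb it was 1, IRS2 in place of IGFBP3. The share of window bins that differed between T0 and TamR was 11.1% of the 153 bins left when bins under the 10th percentile were removed, which takes out bins near the border by construction. From A to B, 1 pathway gene, SOS1, moved with the start bin and with the mean of 5 bins. From B to A, 1 pathway gene in place of 2, IGF2BP3 without IGFBP7, moved with the start bin, the border at the library median, bins under the 10th percentile left out and bins of 500 Kb, and IRS4 joined IGFBP7 and IGF2BP3, for 3 genes, with the mean of 5 bins and the parental reference. The cause of these shifts was otherwise not tested. The share of window bins uses no gene score, so the start bin and the mean of 5 bins give it no value. No paired analysis was possible because every group holds 1 library. Depth is unknown, so nothing can be said of its effect on a score near 0.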

Other observations

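IRS1 and IRS2 each lie close to a head-to-head pair of type IV collagen genes, COL4A4 and COL4A3 on chromosome 2 and COL4A1 and COL4A2 on chromosome 13. The neighbourhood was chosen after the scores were seen. Type IV collagens form the meshwork of basement membranes. In TamR the pair on chromosome 2 started inside the B run of IRS1, and the pair on chromosome 13 started in the first A bin after the B run of IRS2. COL4A4 had a mean score of 0.689 in T0, 0.528 in T1, 0.601 in T4, 1.01 in T16, -0.0998 in T24 and -4.19 in TamR. COL4A3 had 0.488 in T0, 0.704 in T1, 0.754 in T4, 0.638 in T16, -0.591 in T24 and -2.93 in TamR, so both genes on chromosome 2 were in B at T24 and in TamR. COL4A1 had 2.66 in T0, 2.01 in T24 and 0.977 in TamR, and COL4A2 had 3.07 in T0, 2.94 in T24 and 1.93 in TamR, so both genes on chromosome 13 stayed in A. IRS1 and IRS2 themselves were in A at T24, the time point at which the collagen genes of chromosome 2 were in B. RHBDD1 starts between IRS1 and that pair.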
